A study of Mus musculus with 172 samples.

Results

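The cerebral cortex of 2 inbred mouse strains, C57BL/6J (B6) and DBA/2J (D2), was compared in undisturbed mice (Ctr) and after sleep deprivation (SD). The comparison rests on 8 of the 172 libraries of the series, 4 for each strain: 2 in Ctr and 2 in SD. All mice were males aged 11 to 14 weeks. SD consisted of gentle handling for 6 h from light onset, and all mice, Ctr included, were killed when it ended (ZT6). Each library holds the pooled RNA of 3 mice, so that differences between single animals are not visible. One pool of each strain and condition was collected at the start of a breeding phase and the other at its end, and they are called the start pool and the end pool. The other lines used here for description are the 33 BXD/RwwJ lines, inbred from crosses of C57BL/6J and a DBA/2 strain, and the reciprocal F1 hybrids. The paper's supplement names DBA/2Rj as the DBA/2 substrain behind this newer BXD panel, and DBA/2J as that behind an older one. Differences between these substrains were not tested.

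The paper treats B6 and D2 as the parents of the BXD lines, in which each gene carries either the B6 or the D2 allele. A variant between the strains can change the amount of RNA of the gene it lies in, through the promoter, the splice sites, the stability of the transcript or the number of gene copies, or it can act on genes elsewhere through a regulator. Such expression differences between the parents are the raw material of expression mapping in their offspring. In cortex, B6 and D2 are known to differ at genes of inhibitory neurotransmission, antigen presentation and detoxification.

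Levels are given in log2 CPM, the logarithm of counts scaled to library size (CPM, after TMM scaling), and differences are D2 minus B6 on this scale, so that a difference of 1 is a change of 2-fold. Errors after a difference are standard errors from limma, and adjusted p-values (Benjamini-Hochberg over all 14896 listed cortex genes) are from limma with a variance trend. A gene was called at an adjusted p under 0.05. The libraries held between 18995492 and 24255125 reads in listed genes. Strain was the largest source of variation, with 53.4% of the variance on the first principal component, which separated the B6 from the D2 pools. The second component (25.1%) separated Ctr from SD, and the next one (6.32%) separated start from end pools. Pearson's r between pools of the same strain and condition was 0.993 to 0.995, between Ctr and SD of a strain 0.985 to 0.989, and between strains 0.968 to 0.979.

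With condition as a factor (4 pools against 4), 3804 of 14896 genes differed between the strains (25.5%). In D2, 1728 genes were higher (11.6% of those tested) and 2076 were lower (13.9%). Which direction held more genes depended on the scaling, since 54.6% of the called genes were lower in the deposited scaling, 49.1% after median centering and 49.4% after quantile normalization. Most of these differences were small, with a median size of 0.32 among the called genes, or 1.24-fold. A difference of at least 1 was seen at 475 genes and one of at least 3 at 81 genes. Among the latter, 56 were lower and 25 higher in D2. The 4 pools of one strain lay outside the range of those of the other at 2570 genes (17.3%), and 2267 of these were among the called genes. Reads of both strains had been aligned to mm9, the genome of C57BL/6J, and how far D2 variants lowered the share of aligned reads was not tested.

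The differences were carried over from Ctr to SD. In Ctr alone (2 pools against 2), 1938 genes differed (13%), and in SD alone 2210 (14.8%). Of these, 1383 were called in both conditions with the same sign (9.28% of all genes), which is 71.4% of the Ctr list and 62.6% of the SD list, and no gene was called in both with opposite signs. The 2 conditions shared no pool, but both comparisons used a spread estimated over all 4 group means together. The 2 lists are therefore not independent of each other. Of the 1383 genes, 481 were higher and 902 lower in D2, or 65.2% lower (61.1% after median centering and 61.8% after quantile normalization). Another 1382 genes were called in a single condition. At 1301 of them the estimate in the other condition had the same sign, and at none was the difference between conditions itself called. The interaction of strain and condition was called at 1 gene (0.00671%), *Pla2g4e*, and 671 genes had an unadjusted interaction p under 0.05, or 4.50% of all genes. A call in Ctr alone or in SD alone therefore does not show that the strain difference changed with SD.

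**Figure D1:**
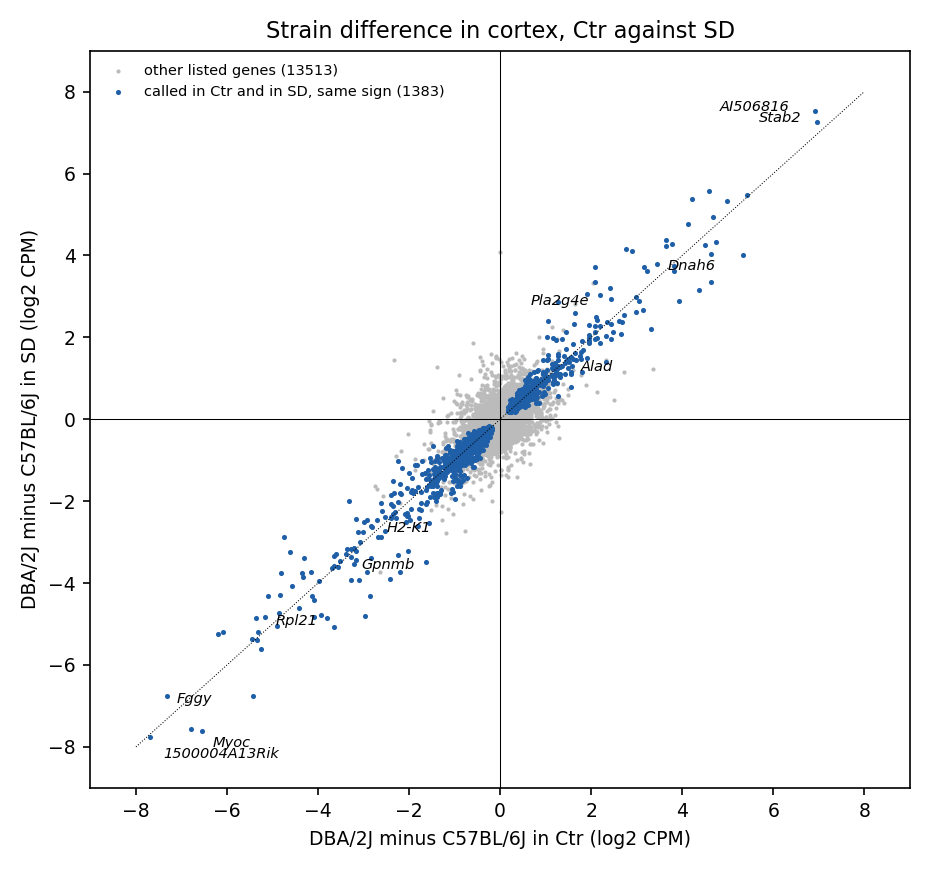
Strain difference (D2 minus B6, log2 CPM) of each listed cortex gene in Ctr (horizontal) and in SD (vertical), each from 2 pools against 2. The 1383 genes called in both conditions (blue) lie along the dotted line of equal differences, from *1500004A13Rik* at -7.68 and -7.76 to *AI506816* at 6.92 and 7.52.

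Several genes with known variants between the strains stood apart. *Gpnmb*, a transmembrane glycoprotein of phagocytic and pigment cells that carries a premature stop codon in D2, was at 1.30 and 1.64 log2 CPM in the B6 Ctr pools (start and end) and at 1.66 and 1.82 in SD. In D2 it was at -2.13 and -1.5 in Ctr and at -1.55 and -1.68 in SD. All D2 pools were below all B6 pools, by 3.32 ± 0.22 (adjusted p = 3.06e-08), with 268 reads in B6 and 22 in D2 over 4 pools each. *Gpnmb* lies on chromosome 6 (mm9, 48986517 to 49020928).

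*Alad*, the heme synthesis enzyme whose gene is duplicated in D2, was at 4.57 and 4.56 in the B6 Ctr pools and 4.82 and 4.64 in SD, against 6.16 and 6.07 in Ctr and 6.23 and 6.29 in SD in D2. The strains did not overlap, and *Alad* (chromosome 4, 62170203 to 62180952) was 1.54 ± 0.05 higher in D2, or 2.91-fold (adjusted p = 1.37e-11). *Glo1*, the glyoxalase that clears methylglyoxal and also lies in a segment duplicated in D2, ranged from 5.25 to 5.39 in B6 and from 6.44 to 6.48 in D2. The groups were again apart, with a difference of 1.11 ± 0.04, or 2.15-fold (adjusted p = 1.01e-10). Of the 100-base stretches of *Glo1* transcripts, 41.8% occur elsewhere in mm9, so reads could be shared with a copy.

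*Gabra2*, the alpha2 subunit of the GABA-A receptor, carries an intronic deletion in C57BL/6J. It was at 5.05 and 5.11 in the B6 Ctr pools and at 5.46 and 5.43 after SD, and at 6.07, 6.22, 6.15 and 6.27 in D2 in the same order. *Gabra2* (chromosome 5, 71352296 to 71487088) was 0.91 ± 0.06 higher in D2 (adjusted p = 3.33e-08). The difference was 1.06 in Ctr and 0.77 in SD, and the interaction was not called (adjusted p = 0.990).

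The other listed genes of this kind differed less. *Mpdz*, a multiple PDZ domain scaffold, was lower in D2 by 0.42 ± 0.06 and *Myo5a*, the unconventional myosin of the dilute coat color locus, by 0.29 ± 0.04, and both were called in Ctr and in SD. *Nnt*, a mitochondrial transhydrogenase with an exon deletion in C57BL/6J, had a difference of 0.14 ± 0.08 (adjusted p = 0.212), *Ahr*, the aryl hydrocarbon receptor, of -0.17 ± 0.07 (0.0812) and *Kcnj9*, a G protein-gated potassium channel, of 0.00 ± 0.04 (0.979). *Tyrp1*, *Hc*, *Klrd1*, *Taar1* and *H2-Ea* are not listed in cortex under these symbols. *H2-Ea-ps* is listed, but it is not counted here and is described with the major histocompatibility complex. In all, 7 of 10 listed genes were called (70%, against 25.5% of all genes), 3 higher and 4 lower in D2.

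**Figure D2:**
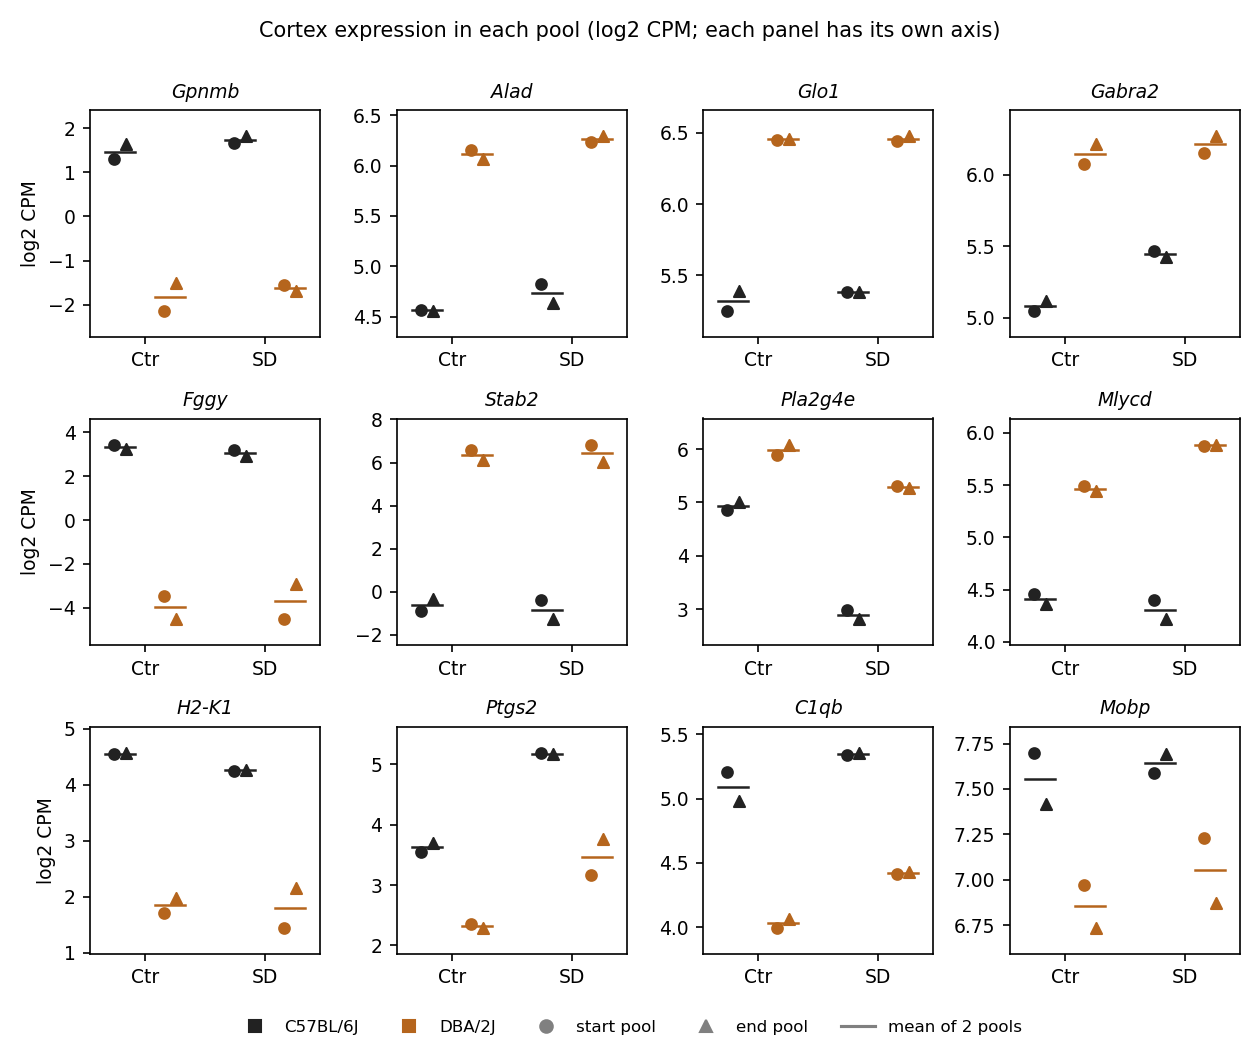
Level of 12 genes in each of the 8 pools (log2 CPM), with circles for start pools, triangles for end pools and bars for the mean of 2 pools. *Gpnmb*, *Fggy* and *H2-K1* are lower and *Alad*, *Glo1*, *Gabra2*, *Stab2* and *Mlycd* higher in all 4 D2 pools, while *Ptgs2* also rises after SD in both strains, by 1.55 in B6 and 1.14 in D2.

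At the top of the list were genes that were almost without reads in one strain. *Fggy*, a carbohydrate kinase (chromosome 4, 95224198 to 95593630), was at 3.44 and 3.23 in the B6 Ctr pools and 3.18 and 2.92 in SD. In D2 it had 3 reads over 4 pools against 821 in B6, a ratio of 256.4 (exact 95% interval from counting error alone, 87.4 to 1246). *Myoc*, myocilin, the glaucoma-linked secreted protein (chromosome 1, 164569281 to 164579824), had 1637 reads in B6 and 9 in D2, a ratio of 170 (89.6 to 373). Differences of such genes on the log2 scale depend on the small count added before the logarithm. They were -7.05 ± 0.34 for *Fggy* and -7.08 ± 0.27 for *Myoc*.

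*1500004A13Rik* and *Gm14403* were also close to absent in D2, with 6 reads against 1891 and 1 read against 668. *AA388235*, *Gm10635*, *Gm14420*, *Rec8* (a meiotic cohesin subunit), *Tnnt2* (cardiac troponin T), *Bub1b* (a spindle checkpoint kinase), *Sbsn* (suprabasin) and *Oscar* (an osteoclast-associated receptor) were lower in D2 by 4.31 (*Oscar*) to 6.10 (*AA388235*). Each of these genes was called in Ctr and in SD. The ribosomal protein genes *Rpl29*, *Rpl21* and *Rps18* complete the 15 largest decreases and are described further on.

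In the other direction, *Stab2*, a scavenger receptor for hyaluronan known from sinusoidal endothelium, was at -0.88 and -0.32 in the B6 Ctr pools and -0.40 and -1.27 in SD. In D2 it was at 6.59 and 6.13 in Ctr and 6.83 and 6.03 in SD. *Stab2* (chromosome 10, 86303943 to 86470770) was thus 7.11 ± 0.20 higher in D2 (adjusted p = 3.10e-12), with 7196 reads in D2 and 52 in B6, a ratio of 148 (112 to 198). *AI506816* had 710 reads in D2 and 2 in B6, a ratio of 379 (104 to 3134). The next genes in size were *Dnah6*, an axonemal dynein heavy chain (3.62 ± 0.16), *Cacna1s*, the calcium channel subunit of skeletal muscle (3.41 ± 0.20), and *Col6a5*, a collagen VI chain (3.0 ± 0.23).

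The remaining 10 of the 15 largest increases lay between 2.05 and 2.64. They include *Ccl6*, a chemokine (2.13 ± 0.19), *Pcdhgb8*, a clustered protocadherin (2.11 ± 0.14), and *Sfi1*, a centrosomal protein (2.36 ± 0.06, with 3062 reads in B6 and 14738 in D2). *F630042J09Rik*, *A930015D03Rik*, *AI847159*, *Sytl1*, *Pyroxd2* and *Fau* are also among them. The 4 D2 pools were above the 4 B6 pools in each, as the choice of these genes required.

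Among abundant transcripts the differences were small. *Kif5a*, a kinesin heavy chain of axonal transport and the called lower gene with the most reads, was at 12.15, 12.05, 12.07 and 11.98 in B6 and at 11.73, 11.68, 11.72 and 11.65 in D2 (start and end pool in Ctr, then in SD). The strains were apart by 0.37 ± 0.05 (adjusted p = 3.93e-05). *Snhg11*, a non-coding host transcript of small nucleolar RNAs, was 0.44 ± 0.06 lower and *Camk2n1*, an inhibitor of CaMKII, 0.21 ± 0.07 lower in D2, the latter with overlapping pools. *Srrm2*, a splicing factor, was 0.26 ± 0.04 higher, *Hsp90ab1*, a chaperone, 0.15 ± 0.04 higher and *Sptan1*, brain spectrin, 0.13 ± 0.05 higher, the last at an adjusted p of 0.0476.

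The interaction was called at *Pla2g4e*, an N-acyltransferase of the phospholipase A2 family (chromosome 2, 119992148 to 120071071). In B6 it was at 4.87 and 5.01 in Ctr and at 2.98 and 2.82 in SD, a fall by 2.04. In D2 it was at 5.88 and 6.08 in Ctr and at 5.32 and 5.27 in SD, a fall by 0.69. D2 was above B6 in every pool of a condition, by 1.04 ± 0.09 in Ctr and 2.39 ± 0.09 in SD, and these differences differed by 1.35 ± 0.13 (adjusted p = 0.000958). Without the variance trend the adjusted p of the interaction was 0.191.

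Of the other genes that the study followed, *Mlycd*, malonyl-CoA decarboxylase, was at 4.46 and 4.37 in the B6 Ctr pools and 4.40 and 4.22 in SD, against 5.49 and 5.44 in Ctr and 5.88 and 5.89 in SD in D2. It was 1.31 ± 0.09 higher in D2 (adjusted p = 2.71e-08). The interaction of 0.52 ± 0.11 had an unadjusted p of 0.000339 (limma) and was not called over all genes (adjusted p = 0.843). *Kif16b*, an endosomal kinesin, was 0.44 ± 0.06 lower in D2 in both conditions. *Egr2* was lower by 0.77 ± 0.21 and *Homer1* by 0.21 ± 0.07, and *Plin4*, a lipid droplet protein, was higher by 0.49 ± 0.17, but none of these was called in both conditions. The difference of *Plin4* was -0.016 in the end pools alone, and it was not called with the spread over all lines (adjusted p = 0.512) or without any 1 of 5 pools. *Wrn*, a RecQ helicase, had a difference of 0.28 in Ctr and of -0.24 in SD, and neither these nor their interaction (adjusted p = 0.900) were called. *Arc*, *Acot11* and *Dhtkd1* were not called, with differences of -0.28 ± 0.21, -0.09 ± 0.05 and -0.06 ± 0.11. *Homer1* is taken up by the paper from earlier work on a locus mapped in an older BXD panel. The other genes were chosen by the study on samples that include these pools and are no independent evidence.

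Immediate early genes, which neurons transcribe within minutes of activity, were lower in D2 or not called. Of 29 listed members, 16 were lower (55.2%, against 13.9% of all genes) and none was higher, with 18 lower and 0 higher at an unadjusted p under 0.05. None was higher in any alternative fit. The median difference was -0.36, against 0.01 over all genes. *Ptgs2*, the inducible cyclooxygenase, was at 3.55 and 3.70 in the B6 Ctr pools and 5.18 and 5.17 in SD. In D2 it was at 2.36 and 2.30 in Ctr and at 3.16 and 3.76 in SD, so that D2 was lower within each condition by 1.30 and 1.72. The difference over both was -1.51 ± 0.12 (adjusted p = 1.79e-07).

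The 7 members called in both conditions were *Ptgs2*, *Klf4* (-0.70 ± 0.11), *Nptx2*, a secreted synaptic pentraxin (-0.61 ± 0.07), the zinc finger factors *Egr1* (-0.58 ± 0.10) and *Egr3* (-0.36 ± 0.05), *Bdnf*, a neurotrophin (-0.49 ± 0.08), and *Fosl2* (-0.45 ± 0.08). *Fos* (-0.51 ± 0.22, adjusted p = 0.103) and *Npas4* (-0.31 ± 0.15, 0.144) were not called. At 9 of the 29, both D2 pools were below both B6 pools in Ctr and in SD, against 16.4% of all genes. From Ctr to SD the median change was 1.28 in B6 and 1.14 in D2, and no interaction of these genes was called (6 had an unadjusted p under 0.05). The count of 16 fell to 9 without the D2 SD start pool, to 8 without the variance trend and to 7 with the spread over all lines.

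Oligodendrocyte markers were lower in D2 throughout the list. All 10 were called (against 25.5% of all genes), with a median of -0.38, and 6 of them were called in both conditions. Without the variance trend, 7 of the 10 were called, all lower. *Mobp*, a myelin protein, was at 7.70 and 7.41 in the B6 Ctr pools and 7.59 and 7.69 in SD, and at 6.97, 6.74, 7.23 and 6.87 in D2. The strains did not overlap, and the difference was -0.64 ± 0.08 (adjusted p = 1.76e-05). *Mog* was lower by 0.57 ± 0.08, *Mag* by 0.44 ± 0.06, *Cnp* by 0.38 ± 0.05 and *Mbp*, the most abundant of them, by 0.30 ± 0.07. The summed level of the list was 3406 to 4086 CPM in the B6 pools and 2559 to 3268 in the D2 pools. In bulk tissue, fewer cells of a type and less RNA per cell cannot be told apart.

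Of 10 striatal markers, 9 had a negative difference and 1, *Drd2*, a positive one (0.14). In all, 7 were not called, among them *Drd2*, *Adora2a* (-0.83) and *Penk* (-0.60). In D2, 3 were called lower (against 13.9% of all genes), none in both conditions and each with overlapping pools. *Rgs9* (-0.95 ± 0.24) and *Ppp1r1b* (-0.41 ± 0.13) were among these. The median of the list was -0.42, and its summed level was 317 to 622 CPM in B6 and 277 to 471 in D2. The number called ranged from 0 without the variance trend to 9 in the start pools alone. The part of the tissue taken at dissection in the difference of the myelin genes was not tested.

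Of the 10 microglia markers, 6 were lower and 1 was higher in D2 (70%, against 25.5% of all genes). *C1qb* was at 5.21 and 4.98 in the B6 Ctr pools and 5.34 and 5.35 in SD, and at 4.00, 4.06, 4.41 and 4.43 in D2. This chain of the complement component C1q was lower in D2 by 0.99 ± 0.06 (adjusted p = 1.06e-08), and its neighbor *C1qc* by 0.99 ± 0.06 (chromosome 4, 136436044 to 136442102 and 136445719 to 136448980). *C1qa*, the remaining chain, was lower by 0.22 ± 0.06, *Cx3cr1* by 0.30 ± 0.06 and *Csf1r* by 0.25 ± 0.05, while *Aif1* was 0.48 ± 0.12 higher. *Tmem119* (-0.12 ± 0.09), *P2ry12* (0.14 ± 0.06) and *Ctss* (0.16 ± 0.06) were not called. *C1qb* and *C1qc* were thus the members with the largest differences, and the only ones called in both conditions.

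Inhibitory neuron markers were higher in D2 where called (with period as a block, 6 were higher and 1 lower). These were 5 of 10 (against 11.6% of all genes that were higher), with a median of 0.15: *Dlx1*, an interneuron transcription factor (0.42 ± 0.06), *Vip* (0.35 ± 0.06), the GABA-synthesizing enzymes *Gad2* (0.23 ± 0.05) and *Gad1* (0.17 ± 0.04), and *Pvalb* (0.12 ± 0.04). *Sst* (-0.15 ± 0.06) and *Slc32a1* (0.00 ± 0.06) were not called. Excitatory neuron markers had 1 higher (*Cux2*) and 1 lower member of 10, and the list's pools overlapped. Astrocyte markers had 1 higher and 4 lower of 10 (2 and 2 after median centering), with a median of -0.07, and endothelial and mural markers 3 lower of 10, with a median of -0.14. No choroid plexus marker of 7 was called by limma, none even at an unadjusted p under 0.05, but *Ttr* ranged from 1.49 to 7.77 in B6 and from 3.15 to 8.05 in D2, and was highest in the B6 Ctr and D2 SD start pools. *Ttr* was called higher in D2 with period as a block (2.04, adjusted p = 0.0428), and 3 of the 7 were called without the B6 Ctr start pool. No marker of 3 for pituitary was called, likewise none at an unadjusted p under 0.05, 1 of 8 for hippocampus was higher, 1 of 2 for blood was lower, and for meninges 2 were higher and 1 lower of 10. The share called was 20% for excitatory neurons, 50% for astrocytes, 30% for endothelial and mural cells and for meninges, and 12.5% for hippocampus, against 25.5% of all genes.

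**Figure D3:**
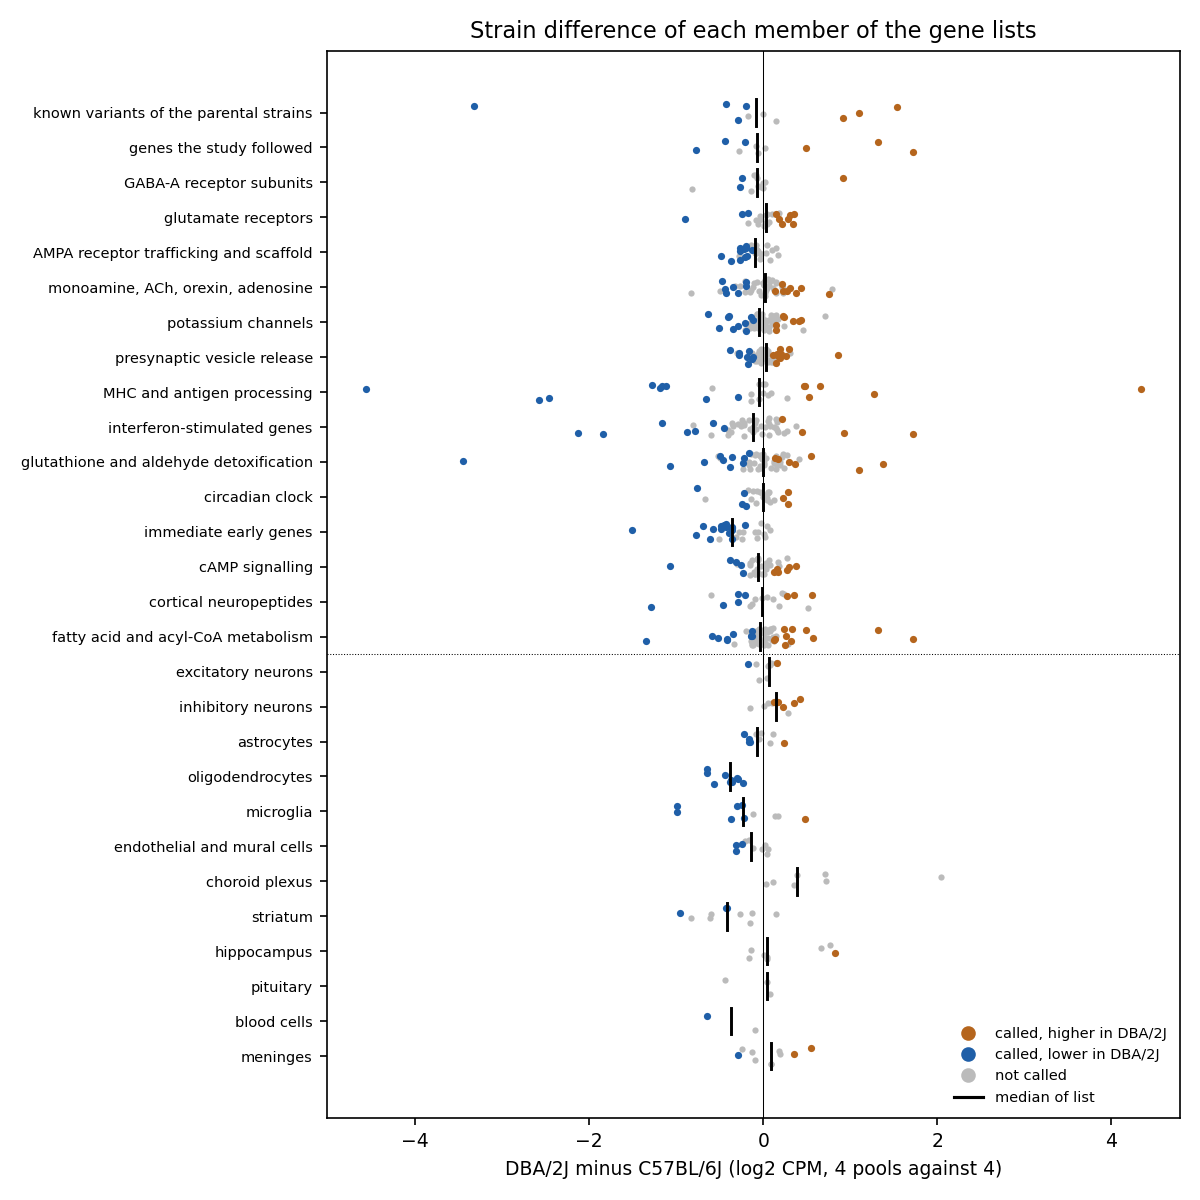
Strain difference (D2 minus B6, log2 CPM, 4 pools against 4) of each listed member of the 16 gene lists and, below the dotted line, of the 12 marker lists. Orange and blue points are called genes and the black bar is the median of the list, which is -0.36 for immediate early genes and -0.38 for oligodendrocytes.

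Receptors and channels were mixed in direction. Of 13 GABA-A receptor subunits, 1 was higher in D2, *Gabra2*, and 2 were lower, among them *Gabrb2* (-0.27 ± 0.06). Of 24 glutamate receptor genes, 7 were higher and 3 lower. The largest difference was that of *Grin2b*, the GluN2B subunit of the NMDA receptor, at 5.65, 5.72, 5.56 and 5.67 in B6 and 4.71, 4.38, 4.94 and 4.98 in D2. This is -0.90 ± 0.09 (adjusted p = 2.73e-06), with all D2 pools below the B6 pools. *Gria1*, an AMPA receptor subunit, was lower by 0.24 ± 0.04, and *Grik3* and *Grin3a* were higher by 0.35 ± 0.06 and 0.28 ± 0.05.

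The AMPA receptor trafficking and scaffold list had 11 of 30 members lower (36.7%, against 13.9% of all genes), with a median of -0.09. None was higher in the deposited scaling (2 at an unadjusted p under 0.05), but 1 was higher after median centering. The scaffold proteins *Homer2* (-0.48 ± 0.05), *Dlg4*, or PSD-95 (-0.22 ± 0.04), and *Dlgap4* (-0.20 ± 0.03) were lower in both conditions, as were *Kif5a* and *Kif5b*.

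Of 67 potassium channel genes, 7 were higher and 10 lower (7 and 6 after median centering). *Kcnj11*, the pore of the ATP-sensitive potassium channel, was lower by 0.64 ± 0.04 and *Kcnf1* by 0.40 ± 0.05, and *Kcnab3*, a beta subunit, was 0.43 ± 0.04 higher. Of 50 genes of monoamine, acetylcholine, orexin and adenosine signaling, 8 were higher and 7 lower. *Ache*, acetylcholinesterase, was 0.44 ± 0.06 higher, while the histamine receptor *Hrh1* (-0.47 ± 0.08), the monoamine oxidase *Maob* (-0.44 ± 0.07) and the adrenergic receptor *Adra1d* (-0.30 ± 0.04) were lower.

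Presynaptic release genes split into 10 higher and 8 lower of 51, with *Syt10* (0.86 ± 0.14), *Syt3* (0.26 ± 0.05) and *Unc13b* (0.20 ± 0.04) higher and *Rab3c* (-0.28 ± 0.05) lower. cAMP signaling had 6 higher and 5 lower of 37, among them the cyclase *Adcy4* (-1.07 ± 0.14), the factor *Crem* (-0.38 ± 0.07) and the phosphodiesterases *Pde2a* (-0.31 ± 0.04) and *Pde4a* (0.27 ± 0.04). Of 19 neuropeptides, 3 were higher and 5 lower. *Cort*, cortistatin, was lower by 1.29 ± 0.16 and *Cck* by 0.30 ± 0.05, and *Pdyn* was 0.27 ± 0.06 higher. In the circadian clock list, 3 of 24 were higher, among them *Per3* (0.28 ± 0.05) and *Nr1d1* (0.28 ± 0.04), and 4 lower, with *Arntl2* at -0.76 ± 0.09 and *Hlf* at -0.25 ± 0.04. Except for the glutamate receptor and neuropeptide lists (41.7% and 42.1%), the share called in the lists of this and the 3 preceding paragraphs was between 23.1% and 36.7%, against 25.5% of all genes.

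The major histocompatibility complex, for which B6 carries the b and D2 the d haplotype, had 15 of 26 listed members called (57.7%, against 25.5% of all genes), 6 higher and 9 lower. The class I gene *H2-K1* was at 4.55, 4.56, 4.25 and 4.26 in B6 and at 1.71, 1.97, 1.45 and 2.16 in D2. The groups were apart by 2.58 ± 0.13 (adjusted p = 1.39e-09; chromosome 17, 34132962 to 34137278). *H2-T23*, of class Ib, was lower by 1.16 ± 0.09 and *B2m*, the light chain shared by class I molecules, on another chromosome, by 0.66 ± 0.06.

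*H2-D1* (0.52 ± 0.08) and *H2-T24* (1.28 ± 0.12) were higher in D2. *H2-Ea-ps* had no read in any B6 pool and 76 in D2, at least 27-fold higher with a floor of 3 reads over the B6 pools. *H2-Bl* had 107 reads in B6 and 1 in D2, a ratio of 100.3 (17.6 to 3997). The class II genes *H2-Aa* (-1.12 ± 0.21) and *H2-Ab1* (-1.19 ± 0.22) were lower. These genes are highly polymorphic and close in sequence, so that reads of D2 may be lost or counted for another member. This was not tested. Among processing genes, *Tap2* was called lower in D2. Of the *H2-DM* genes, *H2-DMb1* was lower and *H2-DMa* higher, both called in Ctr and in SD. *Tap1*, *Tapbp*, *Psmb8*, *Psmb9* and *Psmb10* and the class II chaperone *Cd74* were not called, with differences between -0.14 and 0.09.

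Of 50 interferon-stimulated genes, 4 were higher and 7 lower in D2 (22%, under the 25.5% of all genes). *Xaf1* was at 2.26, 2.42, 2.13 and 1.94 in B6 and at 3.91, 3.95, 3.80 and 3.95 in D2, with no overlap and a difference of 1.72 ± 0.09 (adjusted p = 2.37e-09). *Ifi203* (-2.13 ± 0.31) and the GTPases *Gbp9* (-1.85 ± 0.17) and *Igtp* (-1.17 ± 0.11) were lower. *Irf7* (-0.35 ± 0.22) and *Ifit1* (0.16 ± 0.21) were not called.

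In glutathione and aldehyde detoxification, 7 of 55 genes were higher and 10 lower (30.9%, against 25.5% of all genes), and 9 and 9 after median centering. *Aldh7a1*, an aldehyde dehydrogenase of lysine breakdown, was at 6.19, 6.18, 6.37 and 6.25 in B6 and 5.23, 5.21, 5.15 and 5.11 in D2, a difference of -1.07 ± 0.05 (adjusted p = 9.78e-10). *Aldh1a3*, which makes retinoic acid, was lower by 3.45 ± 0.27 and *Aldh3a1* higher by 1.37 ± 0.18. In fatty acid metabolism, 11 of 66 genes were higher and 9 lower (30.3%, against 25.5%). *Acaca*, acetyl-CoA carboxylase, which makes the malonyl-CoA that *Mlycd* removes, was at 5.45, 5.46, 5.33 and 5.40 in B6 and 3.89, 4.24, 4.02 and 4.09 in D2. It was lower by 1.35 ± 0.07 (adjusted p = 1.70e-09), and 46.9% of the 100-base stretches of its transcripts occur elsewhere in mm9. *Pla2g6*, a phospholipase, was 0.57 ± 0.06 higher.

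Ribosomal protein genes, looked at after their values were seen, had 4 higher and 15 lower of 79, against 11.6% and 13.9% of all genes. The median of all 79 was 0.00, but 5 differed by over 2. *Rpl21* was at 5.24, 5.15, 5.14 and 4.89 in B6 and at 0.37, -0.29, 0.42 and -0.03 in D2, a difference of -4.99 ± 0.15. *Rpl29* (-5.41 ± 0.24), *Rps18* (-4.10 ± 0.12) and *Rpl3* (-3.94 ± 0.11) were lower as well, and *Fau*, which encodes ribosomal protein S30, was 2.53 ± 0.15 higher. In liver, the strains differed at *Rpl29* by -2.12, at *Rps18* by -0.78 and at *Rpl21* by -0.39, all called and with the sign seen in cortex, whereas *Rpl3* (0.01) and *Fau* (0.23) were not called there. Of the transcripts' 100-base stretches, 10.2% (*Rpl21*) to 87.4% (*Fau*) occur exactly elsewhere in mm9. These values are uncertain, since reads may be shared with processed copies. The median share over 76 ribosomal protein genes was 23.4%, with *Rpl21* and *Rps18* (10.3%) below it and *Rpl29*, *Rpl3* and *Fau* above. *Rps12* (97.8%) and *Rpl17* (83.6%) were not called, at 0.22 and 0.03. The part of such sharing in the strain differences was not tested.

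Liver of the same strains served as a comparison. There, 2524 of 14107 genes differed between the strains (17.9%), in libraries with 5690812 to 7491781 reads. Of the 12695 genes listed in both tissues, 3153 were called in cortex and 2126 in liver. The 841 in common are 26.7% of the cortex list and 39.6% of the liver list, with the same sign at 571 and opposite signs at 270. For comparison, 16.7% of the genes listed in both tissues were called in liver, and 25.5% of all listed cortex genes in cortex. The strain difference itself differed between cortex and liver at 1430 genes (11.3%).

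*Fggy* was called in cortex alone. In liver it was at 7.66 ± 0.10 log2 CPM in B6 and 7.62 ± 0.05 in D2 (standard deviation, n = 4 pools, Ctr and sleep-deprived together). The tissue difference was thus -7.01 (limma, adjusted p = 0.000156). *Stab2* had a strain difference of 0.95 in liver. It was there at 6.89 ± 0.10 in B6 and 7.84 ± 0.09 in D2 (standard deviation, n = 4 pools, both conditions together). *Serpina1b*, an alpha1-antitrypsin gene, had no read in cortex in B6 and 135 in D2, at least 48.0-fold higher with a floor of 3 reads over the B6 pools, and differed by -0.02 in liver. In contrast, *Mrap2*, a melanocortin receptor accessory protein, differed by 0.06 in cortex and by 8.60 in liver, and *4930412C18Rik* by 0.02 in cortex and -5.26 in liver.

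*Mlycd* was higher in D2 in cortex and lower in liver. Its liver level was 7.0 ± 0.05 in B6 and 5.76 ± 0.16 in D2 (standard deviation, n = 4 pools, both conditions together). The tissue difference of 2.56 was called (limma, adjusted p = 0.000181). *Sytl1* (2.37 in cortex, -1.36 in liver), *Kif16b* (-0.44 and 0.42) and *Aldh1a3* (-3.45 and 1.31) also had opposite signs. *C920025E04Rik*, on chromosome 17, differed by -4.36 in cortex and 3.21 in liver. *Gm14403*, *Xaf1* and *Alad* had the same sign in both tissues, with liver differences of -6.14, 1.45 and 0.59.

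**Figure D4:**
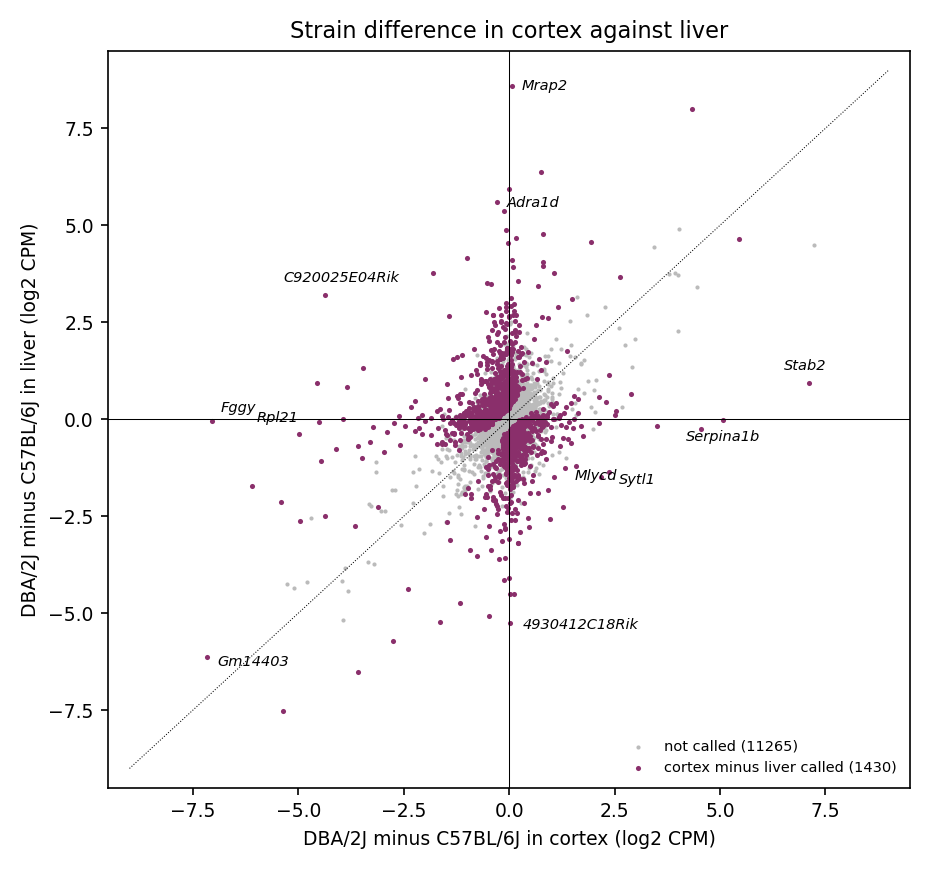
Strain difference (D2 minus B6, log2 CPM, 4 pools against 4) in cortex (horizontal) and liver (vertical) of the 12695 genes listed in both. Purple points are the 1430 genes at which the difference between tissues was called; *Fggy* and *Stab2* lie near the horizontal axis and *Mrap2* and *4930412C18Rik* on the vertical axis.

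Called genes were unevenly spread over the genome. Of 13772 genes placed on mm9 by symbol (92.5%), the share called was highest on chromosomes 17 (219 of 669, 32.7%), 1 (31.2%) and 4 (30%) and lowest on X (79 of 506, 15.6%) and 16 (17.7%). In 225 windows of 10 Mb with at least 20 listed genes the share ran from 0 to 55.6%, with a median of 24.1%. At the top was chromosome 2 from 140 to 150 Mb, with 20 of 36 genes called, and at the bottom chromosome X from 150 to 160 Mb, with 0 of 31. Of the genes called in both conditions, 32.9% had a next listed gene that was called in both as well, against 15.1% of the other genes. Neighbors can overlap, share reads or be in one copy-number segment, and no test was made.

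The BXD/RwwJ lines gave a readout of the same genes in independent mice. Over the 33 lines in Ctr, the median standard deviation of a gene was 0.28 for the genes called in both conditions and 0.13 for those not called. At 259 genes with a strain difference of at least 1 (called in both conditions, pools not overlapping, at least 30 reads on average), a median of 17 lines lay nearer to the B6 mean and 16 nearer to the D2 mean. When the interval between the parental means was cut into 3 equal parts, a median of 1 line fell in the middle part, and at 116 of the 259 genes none did. At the 813 genes with smaller differences, the median in the middle part was 4 lines.

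*Gpnmb* was nearer to B6 in 18 lines and to D2 in 15, with none in the middle part, and *Xaf1* in 9 and 24, again with none. *Glo1* was split 27 to 6, *Alad* 7 to 26 and *Gabra2* 6 to 27, with 0, 0 and 1 line in the middle part. *Stab2* was the most one-sided of the 259 genes, with 32 lines nearer to B6, 1 nearer to D2 and 5 in the middle part. Its levels ran from -2.41 to 5.87 with a median of -0.84, below both D2 pools in each line. The part of the DBA/2 substrain in this was not tested. In the F1 hybrids in Ctr, *Fggy* was at 0.92 and 1.5 and *Alad* at 5.58 and 5.48 (B6 by D2 and D2 by B6), between the parents in each case.

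**Figure D5:**
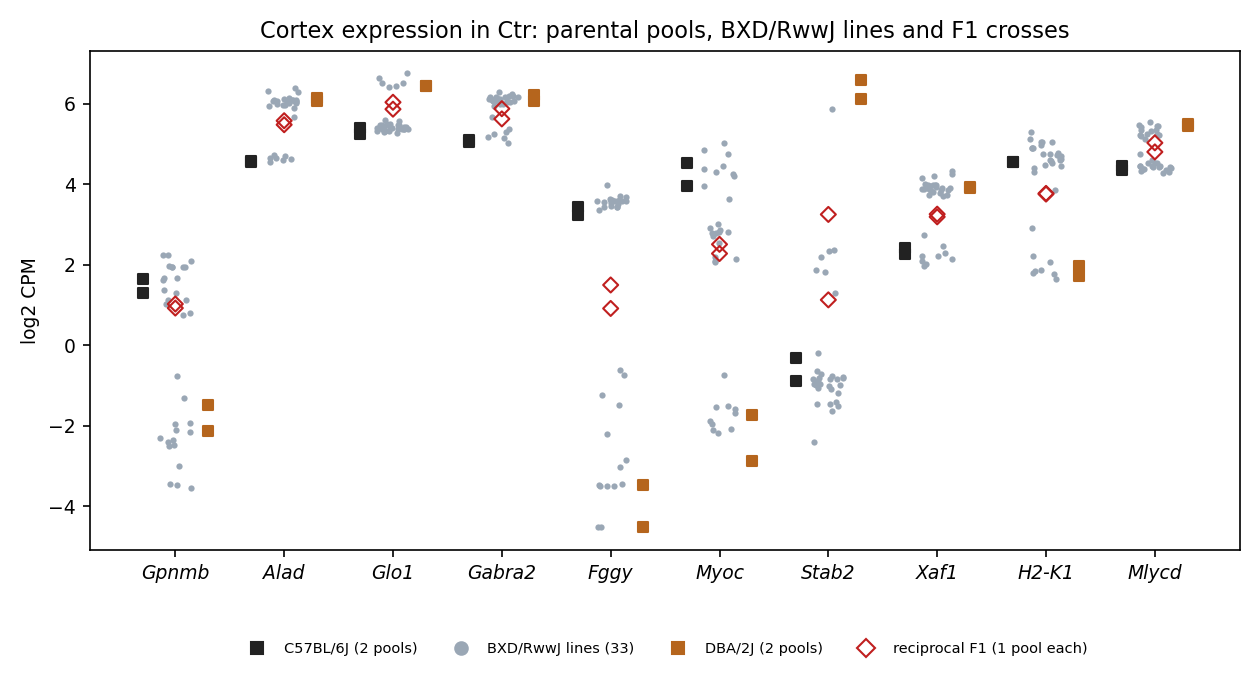
Cortex level in Ctr (log2 CPM) of 10 genes in the 2 pools of each parental strain (squares), the 33 BXD/RwwJ lines (grey) and the reciprocal F1 hybrids (open diamonds, 1 pool each). Lines fall into groups near the parental levels at *Gpnmb*, *Alad*, *Glo1*, *Gabra2* and *H2-K1*, whereas at *Stab2* 32 of 33 lines lie nearer to B6.

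Parental pools were collected at both ends of the breeding phase so that drift could be seen. Between end and start, 70 genes differed (0.47%), 23 higher and 47 lower at the end, while 2374 had an unadjusted p under 0.05. The median size was 0.24. The largest differences included the striatal genes *Six3* (-3.13), *Drd2* (-1.91), *Adora2a* (-1.53) and *Syndig1l* (-1.07) and the choroid plexus genes *Clic6* (-2.33) and *Aqp1* (-1.66). Of the 70 genes, 17 also differed between strains (against 25.5% of all genes) and 1 was called in both conditions (against 9.28% of all genes). The count of 70 was not stable, since it ran from 10 to 741 with 1 pool left out (741 without the D2 Ctr end pool), was 1107 with a random block and was 0 without the variance trend.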

How the data were processed

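Cortical RNA was sequenced as 100-base single-end reads (stranded poly(A) libraries), and the authors aligned the reads of every strain to mm9 with STAR and counted them per RefSeq gene with HTSeq. The deposited values are log2 CPM made by the authors with edgeR (TMM scaling, genes with few reads removed). Whole reads were recovered for 100% of values (tolerance 0.02 read), and no column was left unmapped. The deposited values were fitted with limma 3.58.1 (R 4.3.3, lmFit and eBayes with trend, Benjamini-Hochberg over all genes), with strain and condition as factors, or as 4 group means for Ctr, SD and the interaction. Cortex minus liver was fitted on differences between pools of the same strain, condition and period. The fits were tested on simulated data.

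Genes were named by rule: the 15 largest differences in each direction among genes called in both conditions, not overlapping and with at least 30 reads on average, the members of 2 short lists, called interactions, the 3 largest tissue differences and the 3 most abundant genes in each direction, and up to 4 members per list or those needed to account for it. Members and lists were chosen with earlier results of these data known. Transcripts (GENCODE vM1) were cut into stretches of 100 bases and searched in the mm9 chromosomes. Alternatives were no trend, median centering, quantile normalization, a filter, a prior count of 5, voom, period as a block, a random block, omitted pools, one period alone, the spread over all lines and a minimum difference of 1. Same-period pools of other groups deviated together (r = 0.021 to 0.235 over 12 pairs), and the labels give the period. The 2 pools of a group deviate from their mean by equal and opposite amounts. Each pair of start pools therefore has the same r as the matching pair of end pools, and the 12 pairs are not independent. Nothing says that the pools' mice were raised apart, so p-values measure the spread between pools. Some genes that the rule names are not reported here.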

Additional observations from a re-analysis of the deposited data

Results flagged for a closer look

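The strain difference of *Pla2g4e* differed between Ctr and SD by 1.35 (limma, adjusted p = 0.000958). It remained called without any one pool, with adjusted p between 0.00125 and 0.0157, and had an adjusted p of 0.191 without the variance trend.

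At 20 genes named for their size, the strain difference differed between cortex and liver (limma on cortex minus liver, D2 minus B6). It was lower in cortex at *Mrap2* (-8.54), *C920025E04Rik* (-7.57), *Fggy* (-7.01), *Rpl21* (-4.60), *Tnnt2* (-4.44), *AA388235* (-4.37), *Bub1b* (-3.36), *Rps18* (-3.33), *Rpl29* (-3.29), *Sbsn* (-1.87), *F630042J09Rik* (-1.03) and *Gm14403* (-1.03). It was higher in cortex at *Sfi1* (1.22), *Pyroxd2* (1.85), *Ccl6* (2.23), *Fau* (2.31), *Sytl1* (3.72), *Serpina1b* (5.10), *4930412C18Rik* (5.27) and *Stab2* (6.17). *Mrap2* and *4930412C18Rik* had differences of 0.06 and 0.02 in cortex. Liver libraries had fewer reads, and genes near 0 in a tissue have differences that depend on the added count.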

How the results depend on the processing

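Named genes that were called (129) kept direction and call in 2339 of 2436 refits, lost the call in 96 and reversed in 1, *Plin4*, at -0.016 in the end pools alone and 0.999 in the start pools alone. Another 26 named genes, not called, became called in 26 of 489 refits. With a minimum difference of 1, the strain difference was called at 475 genes, the strain difference in Ctr at 421, in SD at 490, in both conditions at 328, in liver at 773, cortex minus liver at 547, and start against end of the breeding phase at 12. Without the variance trend, the strain difference in Ctr was called at 1228 genes, in SD at 1416, in both conditions at 899, the strain by condition interaction at 0 and start against end of the breeding phase at 0. Start against end was called at 122 genes by voom and at 1107 with a random block.

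With period as a replicate block, the pairing by collection time gave 4447 genes for the strain difference, 2754 in Ctr, 2997 in SD and 1836 in both conditions. The strain by condition interaction was then called at 2 genes, *Crocc* (-0.59) besides *Pla2g4e*. Leaving out a pool, or all start or end pools, gave 2816 to 3773 genes for the strain difference, 1231 to 2423 in liver and 46 to 1045 for cortex minus liver. In liver the end pools alone gave 1463 and the start pools alone 1231, and for cortex minus liver 46 and 217, with 890 without the B6 SD end pool. Leaving out a pool gave 1023 to 2088 in Ctr, the lowest 4 (1237, 1285, 1112 and 1023) without one of the Ctr pools, and 1502 to 2178 in SD. It gave 891 to 1177 in both conditions, with 915 and 891 without the D2 Ctr start and end pool, and 1 to 5 for the interaction, 5 without the D2 SD end pool. Start against end ranged from 10 to 741, with 741 without the D2 Ctr end pool, 16 and 12 without the B6 Ctr start and end pool, 13 without the B6 SD end pool, and 14 and 10 without the D2 SD start and end pool. Cortex minus liver was not refitted by voom, only the strain difference in cortex was refitted with the spread over all lines, and comparisons within a condition were not made in one period alone. The other settings moved these counts by less than 1.5-fold. With 2 pools per strain and condition, the median standard error of an interaction was 0.13, which limits the interactions that could be detected.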

Other observations

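*Stab2* differed between the reciprocal F1 hybrids, at 1.13 log2 CPM in Ctr and 1.57 in SD in the B6 by D2 pool and at 3.25 and 3.68 in the D2 by B6 pool. Other genes whose BXD/RwwJ lines fell mostly on one side were *A630089N07Rik*, with 30 of 33 lines nearer to B6, *Ndufa12* (29) and *AW495222* (28), all chosen after their values were seen. Genes with opposite called differences in cortex and liver and a called tissue difference numbered 249, among them *Adra1d* (-0.30 in cortex, 5.59 in liver), *Slc39a2* (-1.81 and 3.77) and *Fut10* (-1.43 and 2.66).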
